A study of Homo sapiens with 12 samples.

Results

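A set of 37 genes of fatty acid oxidation, ketone body metabolism and lipid droplet breakdown was examined in 2 gastric cancer cell lines, SNU-5 and MKN45, before and after inhibition of the MET receptor. The genes were chosen by symbol, for their known place in these pathways, but with earlier results of these data known. Each was represented by its brightest probe, the one with the highest mean signal over all arrays. Of the 37 genes, 36 had a named probe, against 20046 genes with one on the whole array, and 35 were detected on at least 3 of the 12 arrays and were tested, against 12748 genes in all. Of the others, PPARGC1A, a coactivator of oxidative metabolism, was detected on no array, and ACSL3, an acyl-CoA synthetase, was not analysed here. One of the 35, PPARA, passed the detection filter only through the 3 arrays of crizotinib-treated SNU-5 cells, so that it had to differ in that line.

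Total RNA was hybridised to Illumina HumanHT-12 v4 arrays, 3 for each of 4 groups, the untreated control and the crizotinib-treated cells of either line. Both lines carry an amplified MET gene. Treated cells received 1 uM crizotinib, a kinase inhibitor that blocks MET, for 24 h, and control cells received none. MKN45 was grown in RPMI-1640 medium and SNU-5 in Iscove's modified Dulbecco's medium, so that line and medium cannot be told apart. No source says whether the 3 replicates were separate cultures, and the p-values then measure only the spread between these samples.

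Mean signals ran from 312.5 to 557 intensity units per array and 18998 to 20248 probes were detected. SNU-5 control replicate 1 stood apart, with the highest mean signal; the lowest correlation of log2 signals within a group was 0.964 in the SNU-5 controls and 0.986 to 0.989 in the other 3 groups. Of 6 epithelial markers, 5 were detected on all 3 arrays of each control group, all but CLDN4 in MKN45 and all but CDH1 in SNU-5. CDH1, which encodes E-cadherin, lay between 4.39 and 4.88 on the log2 scale in SNU-5 controls, close to the limit of detection. Of the markers of other cells, PTPRC, CD3E and PDGFRB were below detection on every array, and COL3A1 and ADIPOQ on 11 of the 12. The leukocyte marker CD68 and the adipocyte markers LEP and CIDEC were detected on every array of both lines. The leukocyte marker CD14 was detected on every SNU-5 array and on 2 of 3 in each MKN45 group. The hepatocyte marker ALB was detected on every SNU-5 array, all 3 MKN45 controls and 1 treated MKN45 array. The endothelial marker PECAM1 was detected only on 2 SNU-5 controls. The fibroblast marker COL1A1 was detected on every MKN45 array, 2 SNU-5 controls and no treated SNU-5 array. CD14 averaged 10.41 on the SNU-5 control arrays and 9.41 on the treated ones (limma adjusted p = 0.0011), just short of the fold needed for a call. The summed signal of the leukocyte markers ranged from 1442 to 1918 on SNU-5 control arrays and from 961 to 1491 on treated ones, and that of the adipocyte markers from 1193 to 1359 and from 1357 to 1651. The summed signal of 5 fibroblast markers ranged from 565 to 1504 on SNU-5 control arrays and from 5200 to 6372 on treated ones, through LUM and DCN, against 123 to 130 and 130 to 148 in MKN45, and the part of these 3 lists in the SNU-5 results was not tested. In such bulk RNA, a change in the make-up of the cells and a change in RNA per cell cannot be told apart.

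Fatty acids enter mitochondria as carnitine esters, through CPT1A, SLC25A20 and CPT2, and are shortened there in cycles of dehydrogenation, hydration, a second oxidation and thiolysis that feed electrons and acetyl-CoA to respiration. PDK4 phosphorylates and inactivates pyruvate dehydrogenase, which closes the entry of glucose carbon and favours fat as a fuel. The PPAR nuclear receptors bind fatty acids and switch on many of these genes, and lipases at the surface of lipid droplets release the stored substrate.

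In SNU-5 cells, genes of this set were mostly higher after crizotinib. PNPLA7, a lysophospholipase of the endoplasmic reticulum and lipid droplets, rose 15.2-fold, PDK4 rose 6.75-fold, and the first-step dehydrogenases ACADM and ACADS, the thiolase ACAA2, the reductase DECR1 and the triglyceride lipase PNPLA2 rose between 2.33-fold and 2.67-fold. ABHD5, the protein that activates PNPLA2, and ANGPTL4, a secreted inhibitor of lipoprotein lipase, fell. In MKN45 cells, PNPLA7, PNPLA2 and DECR1 rose as well, HADHB and ECI2 rose by less than 2-fold, and ACSL5, ECHS1, ACAT1, PPARG and ANGPTL4 fell. The fall of ANGPTL4 was that of its brightest probe, and a second probe passed in neither line.

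A gene was called when its limma p was under 0.001, its Benjamini-Hochberg adjusted p over all tested probes was under 0.05 and its change was at least 2-fold. Adjusted p-values below are of this kind, and errors of changes are standard errors (SE). By this rule 8 of 35 tested members (22.9%) were called higher in SNU-5, where 7.09% of all tested genes were, and 2 (5.71%) lower, where 7.47% were. Since PPARA could pass the filter only by being higher, 7 of the 8 were detected in both SNU-5 groups. At an adjusted p under 0.05 alone, 18 members (51.4%) were higher against 18% of all genes, and 2 were lower against 17.2%. The median log2 change over the 35 members was 0.59, with 31 above 0, against 0.02 over all tested genes. Of the 35, 23 had all crizotinib arrays above all controls, 2 had them all below and 10 overlapped, where 47.5% of all tested genes did not overlap. PPARA, which had to differ in SNU-5, is also counted among these 18, 31 and 23. Without SNU-5 control replicate 1, 11 members were called higher and 1 lower, the additional ones being HADHB, ACOX3 and BDH1.

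**Figure D1:**
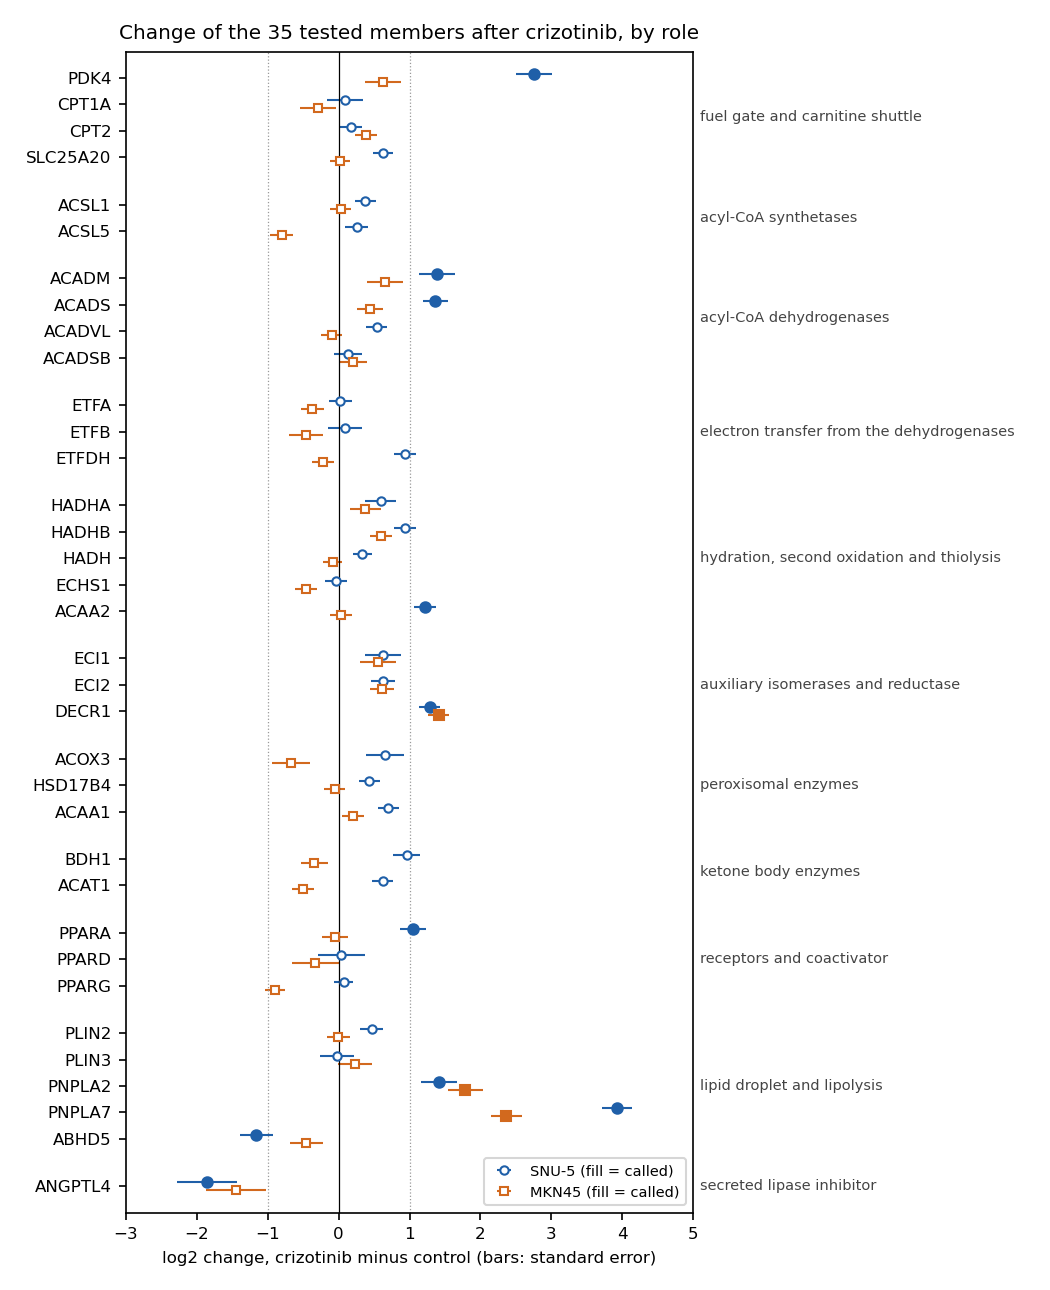
Log2 change after crizotinib of the 35 tested members, grouped by role, as points with standard errors for SNU-5 (circles) and MKN45 (squares), filled where the change was called; dotted lines mark a 2-fold change. In SNU-5 8 members were called higher and 2 lower, and in MKN45 3 were called higher.

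PDK4 measured 8.54, 9.00 and 8.55 on the log2 scale on the SNU-5 control arrays and 11.62, 11.39 and 11.35 on the crizotinib arrays. In MKN45 it measured 6.12, 5.03 and 5.58 in controls and 6.33, 5.81 and 6.46 after crizotinib. The SNU-5 groups lay far apart, while those of MKN45 overlapped. The log2 change was 2.76 in SNU-5 (SE 0.26, adjusted p = 3.8e-06) and 0.62 in MKN45 (SE 0.26, adjusted p = 0.085).

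SLC25A20, which carries acylcarnitines across the inner mitochondrial membrane, rose in SNU-5, by 0.62 log2 units (SE 0.14, adjusted p = 0.0040), and its value in MKN45 was 0.02, but a second probe, detected on all 12 arrays, gave 0.36 in SNU-5 and did not pass (adjusted p = 0.19). CPT1A, the outer-membrane transferase usually taken as the rate-limiting step, had a log2 value of 0.10 in SNU-5 and -0.30 in MKN45, and none of its 3 tested probes passed the test in either line. CPT2, the inner-membrane transferase, had values of 0.17 and 0.38, which did not pass either.

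Among the acyl-CoA dehydrogenases, which catalyse the first step of each cycle, ACADM handles medium chains. It measured 8.74, 9.38 and 9.58 in SNU-5 controls and 10.83, 10.54 and 10.50 with crizotinib, and in MKN45 9.31, 8.87 and 9.10 in controls and 9.54, 9.43 and 10.28 with crizotinib. Crizotinib arrays lay above the controls in both lines, by a wide gap in SNU-5 and a narrow one in MKN45. It rose by 1.39 log2 units in SNU-5 (SE 0.25, adjusted p = 9.0e-04), and the MKN45 value of 0.66 did not pass (adjusted p = 0.065), and a further ACADM probe gave 1.17 and 0.44.

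ACADS, the short-chain dehydrogenase, measured 7.04, 6.68 and 6.66 in SNU-5 controls against 8.08, 8.11 and 8.27 with crizotinib, and 6.93, 7.47 and 7.13 in MKN45 controls against 7.59, 7.84 and 7.43. The SNU-5 groups were separate, and the MKN45 groups overlapped. Its log2 change was 1.36 in SNU-5 (SE 0.18, adjusted p = 7.0e-05) and 0.44 in MKN45 (adjusted p = 0.079). ACADVL, for very long chains, rose by 0.54 in SNU-5 (adjusted p = 0.012), although its second probe, at 0.25, did not pass. ACADSB, for short branched chains, was close to background at 4.72 to 5.61 in SNU-5 and passed in neither line.

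Electrons from these dehydrogenases pass through the flavoprotein ETFA and ETFB to ETFDH, which hands them to ubiquinone. ETFDH measured 8.16, 8.54 and 8.39 in SNU-5 controls and 9.34, 9.07 and 9.49 with crizotinib, and 7.63, 7.66 and 7.84 in MKN45 controls and 7.51, 7.35 and 7.59 with crizotinib. All treated SNU-5 arrays lay above the controls and all treated MKN45 arrays below them. The log2 value was 0.94 in SNU-5 (SE 0.16, adjusted p = 5.6e-04), short of 2-fold unless control replicate 2 (1.02) or crizotinib replicate 2 (1.05) was left out, and -0.22 in MKN45 (adjusted p = 0.35). ETFA and ETFB passed in neither line, with log2 values of 0.02 and 0.09 in SNU-5 and -0.37 and -0.46 in MKN45.

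Of the enzymes for the later steps, ACAA2, the mitochondrial thiolase that releases acetyl-CoA, was the member called. It measured 8.93, 8.86 and 8.80 in SNU-5 controls and 10.09, 10.25 and 9.91 with crizotinib, and 9.42, 9.47 and 9.11 in MKN45 controls and 9.54, 9.31 and 9.26 with crizotinib. The treated SNU-5 arrays stood well above all controls of the line, and the MKN45 arrays were mixed. The log2 change was 1.22 in SNU-5 (SE 0.15, adjusted p = 5.3e-05) and 0.04 in MKN45 (adjusted p = 0.90).

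HADHA and HADHB form the trifunctional protein of long-chain oxidation. HADHB rose in both lines, by 0.93 in SNU-5 (adjusted p = 4.7e-04) and 0.60 in MKN45 (adjusted p = 0.0092), while HADHA, at 0.59 and 0.38, missed the test with adjusted p of 0.053 and 0.22. ECHS1, the short-chain hydratase, fell by 0.46 in MKN45 (adjusted p = 0.039) and had a value of -0.04 in SNU-5. HADH, the short-chain hydroxyacyl dehydrogenase, passed in neither line, at 0.34 and -0.08.

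DECR1 reduces the conjugated double bonds that unsaturated fatty acids leave behind, and it was called in both lines. It measured 9.82, 10.05 and 10.15 in SNU-5 controls and 11.29, 11.20 and 11.37 with crizotinib. In MKN45 it measured 10.71, 10.76 and 10.56 in controls and 12.32, 11.94 and 12.01 with crizotinib. No treated array overlapped a control of its line. It rose by 1.28 in SNU-5 (SE 0.15, adjusted p = 2.9e-05) and 1.41 in MKN45 (SE 0.15, adjusted p = 1.3e-05). ECI2, an isomerase of the same auxiliary route, rose by 0.63 in SNU-5 and by 0.61 in MKN45 (adjusted p = 0.012 and 0.014). A second ECI2 probe, detected on all 12 arrays, gave 0.44 in SNU-5 and did not pass (adjusted p = 0.084), and gave 0.87 in MKN45 (adjusted p = 0.0022). ECI1, at 0.63 and 0.56, did not pass in either line (adjusted p = 0.078 and 0.12).

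In peroxisomes, which shorten very long and branched chains, ACAA1, the peroxisomal thiolase, rose by 0.70 in SNU-5 (adjusted p = 0.0033) and HSD17B4, the bifunctional enzyme, rose by 0.43 (adjusted p = 0.038), and neither passed in MKN45. ACOX3, an oxidase of branched chains, had a log2 value of 0.66 in SNU-5 and -0.67 in MKN45, with adjusted p of 0.080 and 0.071.

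Ketone bodies are made from acetyl-CoA through acetoacetyl-CoA, and ACAT1 and BDH1 catalyse reversible steps at the start and end of that route. BDH1, which interconverts acetoacetate and hydroxybutyrate, measured 5.11, 4.93 and 4.52 in SNU-5 controls, the last below detection, and 5.68, 5.82 and 5.93 with crizotinib. In MKN45 it measured 7.12, 7.70 and 7.42 in controls and 7.04, 7.22 and 6.96 with crizotinib. The SNU-5 groups did not overlap, at a level near background, whereas the MKN45 groups did. The log2 change was 0.96 in SNU-5 (SE 0.19, adjusted p = 0.0016) and the value in MKN45 was -0.34 (adjusted p = 0.21); a dimmer BDH1 probe, detected on 7 arrays, gave -0.16 in SNU-5 (adjusted p = 0.58).

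ACAT1, the mitochondrial acetoacetyl-CoA thiolase, measured 10.44, 10.33 and 10.30 in SNU-5 controls and 10.98, 10.90 and 11.05 with crizotinib, and 10.36, 10.23 and 10.19 in MKN45 controls and 9.63, 9.58 and 10.07 with crizotinib. The groups were separate in both lines, in opposite directions. It rose by 0.62 in SNU-5 (SE 0.15, adjusted p = 0.0074) and fell by 0.50 in MKN45 (SE 0.15, adjusted p = 0.025).

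Of the acyl-CoA synthetases, which activate fatty acids, ACSL5 measured 9.33, 9.40 and 9.37 in SNU-5 controls and 9.45, 9.65 and 9.76 with crizotinib, and 9.14, 9.39 and 8.91 in MKN45 controls and 8.29, 8.54 and 8.21 with crizotinib. It fell in MKN45, by 0.80 (SE 0.16, adjusted p = 0.0018), and its SNU-5 value of 0.25 did not pass (adjusted p = 0.27). Both further tested ACSL5 probes fell in MKN45, with log2 changes of -1.11 and -0.61. ACSL1 passed in neither line, at 0.38 and 0.03.

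**Figure D2:**
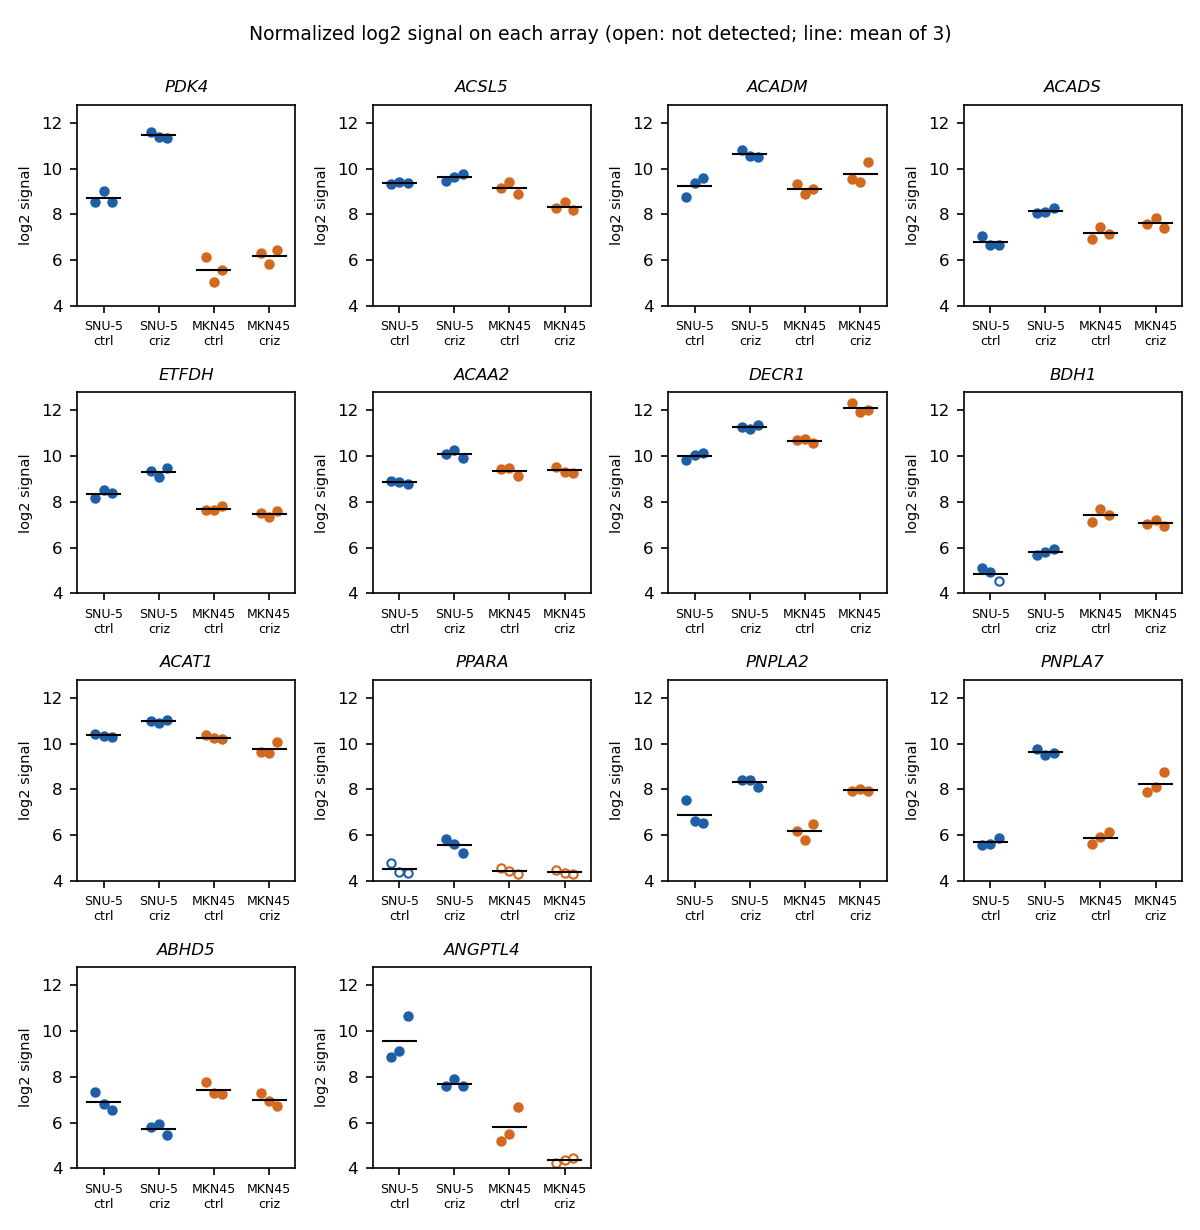
Normalized log2 signal on each of the 12 arrays for the 14 members called in SNU-5, in MKN45 or for the difference between the lines; points are arrays, open where the probe was not detected, and lines are means of 3 (ctrl, control; criz, crizotinib). PNPLA7, PNPLA2 and DECR1 were higher in both lines, whereas PDK4 and ACAA2 were separate in SNU-5 and overlapped in MKN45.

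Among the PPAR receptors, PPARA, the main fatty acid sensor of oxidative tissues such as liver, measured 4.79, 4.40 and 4.33 in SNU-5 controls, all below detection, and 5.84, 5.60 and 5.23 with crizotinib. In MKN45 it measured 4.55, 4.45 and 4.30 in controls and 4.48, 4.34 and 4.32 with crizotinib, none of them detected. Only the treated SNU-5 arrays had a signal above background, which was at least 1.59-fold higher than the SNU-5 controls, a bound set by each control array's lowest detected signal. The limma adjusted p of 6.0e-04 belongs to the fitted change and not to this bound. It is no support for a rise, since PPARA passed the detection filter only through the treated SNU-5 arrays. PPARA was not called without SNU-5 control replicate 2 or 3 or SNU-5 crizotinib replicate 1. Its 2 other probes were not detected on enough arrays to be tested.

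PPARG, known for its part in fat storage, fell by 0.90 in MKN45 (SE 0.14, adjusted p = 2.6e-04) and its second probe fell by 1.34. In SNU-5 its value was 0.07 (adjusted p = 0.77). PPARD, the broadly expressed member of the family, passed in neither line.

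PNPLA7 had the greatest change of the 35 tested members in each line. It measured 5.56, 5.61 and 5.89 in SNU-5 controls and 9.78, 9.50 and 9.57 with crizotinib. In MKN45 it measured 5.62, 5.90 and 6.12 in controls and 7.87, 8.12 and 8.75 with crizotinib. Control levels of the lines overlapped, and all treated arrays stood well above them. It rose by 3.93 in SNU-5 (SE 0.22, adjusted p = 5.8e-08) and 2.37 in MKN45 (SE 0.22, adjusted p = 3.1e-06), which was 5.16-fold.

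PNPLA2, or ATGL, cleaves the first fatty acid from stored triglyceride. It measured 7.55, 6.60 and 6.55 in SNU-5 controls and 8.42, 8.43 and 8.11 with crizotinib, and 6.20, 5.80 and 6.50 in MKN45 controls and 7.91, 8.01 and 7.94 with crizotinib. Treated arrays lay above the controls in both lines, with SNU-5 control replicate 1 the closest to them. The log2 change was 1.42 in SNU-5 (SE 0.25, adjusted p = 7.3e-04) and 1.79 in MKN45 (SE 0.25, adjusted p = 1.2e-04), and 1.74 in SNU-5 without that array.

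ABHD5, or CGI-58, which activates PNPLA2, went the other way in SNU-5. It measured 7.32, 6.79 and 6.56 in SNU-5 controls and 5.81, 5.92 and 5.47 with crizotinib, and 7.79, 7.30 and 7.23 in MKN45 controls and 7.29, 6.94 and 6.73 with crizotinib. The SNU-5 groups were separate and those of MKN45 overlapped. It fell by 1.16 in SNU-5 (SE 0.23, adjusted p = 0.0017) and its MKN45 value was -0.46 (adjusted p = 0.16). The call was lost when control replicate 1 (-0.95) or crizotinib replicate 3 (-1.03) of SNU-5 was left out. Of the droplet coat proteins, PLIN2 rose by 0.47 in SNU-5 (adjusted p = 0.044) and by 0.56 at its second probe, and PLIN3 passed in neither line.

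ANGPTL4, a PPAR target known from several tissues, measured 8.86, 9.13 and 10.67 in SNU-5 controls and 7.60, 7.90 and 7.60 with crizotinib. In MKN45 it measured 5.21, 5.51 and 6.68 in controls and 4.25, 4.36 and 4.44 with crizotinib, the last 3 below detection. Treated arrays were below all controls in both lines, and control replicate 3 was the highest in each. It fell by 1.85 in SNU-5 (SE 0.42, adjusted p = 0.0042). In MKN45 it was at least 1.92-fold lower, and the adjusted p of the fitted change there was 0.017. A second ANGPTL4 probe, detected on all 12 arrays, gave -0.34 in SNU-5 (adjusted p = 0.33) and 0.58 in MKN45 (adjusted p = 0.091), so that the probes disagreed. Without SNU-5 control replicate 3 the brighter probe gave -1.30 in SNU-5 and was no longer called; the call was also lost without any 1 of the SNU-5 crizotinib arrays, at -1.80 to -1.96, and, at an unchanged -1.85, without MKN45 control replicate 2 or any 1 of the MKN45 crizotinib arrays. In MKN45 the fit called it without SNU-5 control replicate 3, but only the bound holds against treated arrays below detection.

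Shown are the promoter sequences of the members called higher in SNU-5 and detected on every array, a choice that rests on that call. They are RefSeq windows of assembly GRCh38.p14, the 250 bases before the annotated start, read 5′ to 3′ along the gene's strand. Capitals mark the GC box GGGCGG, or CCGCCC when it lies on the other strand, and the PPAR core hexamer AGGTCA, or TGACCT on the other strand. The windows lie at chr7:95596517-95596766 on the minus strand for PDK4, chr1:75724459-75724708 on the plus strand for ACADM, chr12:120725576-120725825 on the plus strand for ACADS, chr18:49813534-49813783 on the minus strand for ACAA2 and chr11:818664-818913 on the plus strand for PNPLA2. DECR1 and PNPLA7 had no entry and are named only. In MKN45, PNPLA2, DECR1 and PNPLA7 were also called, and PDK4, ACADM, ACADS and ACAA2 did not pass.
PDK4: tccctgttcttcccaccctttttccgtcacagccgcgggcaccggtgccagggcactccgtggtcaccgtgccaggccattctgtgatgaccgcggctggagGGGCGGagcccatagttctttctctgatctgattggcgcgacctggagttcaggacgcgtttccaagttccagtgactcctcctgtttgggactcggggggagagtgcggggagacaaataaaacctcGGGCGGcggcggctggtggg
ACADM: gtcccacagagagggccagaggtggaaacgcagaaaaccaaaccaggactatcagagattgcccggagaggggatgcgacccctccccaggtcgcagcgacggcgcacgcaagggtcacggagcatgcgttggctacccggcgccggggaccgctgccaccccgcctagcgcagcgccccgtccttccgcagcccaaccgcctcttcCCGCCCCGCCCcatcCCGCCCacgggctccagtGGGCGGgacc
ACADS: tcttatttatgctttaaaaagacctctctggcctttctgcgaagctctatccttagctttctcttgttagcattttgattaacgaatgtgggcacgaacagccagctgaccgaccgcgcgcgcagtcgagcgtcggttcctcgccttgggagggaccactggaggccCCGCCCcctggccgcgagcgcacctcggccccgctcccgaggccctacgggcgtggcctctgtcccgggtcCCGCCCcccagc
ACAA2: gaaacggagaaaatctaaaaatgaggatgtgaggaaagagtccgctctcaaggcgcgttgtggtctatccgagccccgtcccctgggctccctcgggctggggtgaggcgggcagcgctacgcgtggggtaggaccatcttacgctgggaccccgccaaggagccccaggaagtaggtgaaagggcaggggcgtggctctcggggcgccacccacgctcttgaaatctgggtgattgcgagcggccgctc
PNPLA2: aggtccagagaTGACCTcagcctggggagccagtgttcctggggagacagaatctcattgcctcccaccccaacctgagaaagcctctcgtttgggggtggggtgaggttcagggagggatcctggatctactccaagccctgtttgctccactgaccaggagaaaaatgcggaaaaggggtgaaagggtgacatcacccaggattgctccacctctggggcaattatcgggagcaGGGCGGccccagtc

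The share of G and C in these windows ran from 58.4% in PNPLA2, close to the median of 58% over all windows, to 70.8% in ACADM. The GC box, a binding sequence of SP1-type factors, occurred 2 times in PDK4, 4 times in ACADM, 2 times in ACADS, 0 times in ACAA2 and 1 time in PNPLA2. The PPAR hexamer occurred 1 time, in PNPLA2. Over the 54 windows of the 33 members with an entry, taken from 250 bases before to 50 after the start, the GC box was found on either strand in 66.7%, against 45.0% of all 35116 windows of that length. The hexamer was found in 9.26% against 13.8%, and the TATA box TATAAA in 11.1% against 11.5%. The direct repeat of the hexamer, AGGTCANAGGTCA, was in none of the 54 windows and in 0.0228% of all windows, and the forkhead core GTAAACA was in none and in 3.42%. The direct repeat contains the hexamer, and the GC box and TATA box were added after the windows had been read. A match is a description of the letters and not a bound site.

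In MKN45, 3 of 35 members (8.57%) were called higher, PNPLA7, PNPLA2 and DECR1, where 7.33% of all tested genes were, and 0 were called lower, where 7.19% were. At an adjusted p under 0.05 alone, 5 were higher and 5 lower (14.3% each) against 17.9% of all genes in each direction. The 5 higher were the 3 called genes with HADHB and ECI2. The 5 lower were ACSL5, ECHS1, ACAT1, PPARG and ANGPTL4, the last at its brightest probe and not at the second. The median log2 change over the 35 members was -0.0018, with 17 above 0 and 18 below, against 0.0042 over all tested genes. Of the 35, 8 had all crizotinib arrays above all controls, 10 had them all below and 17 overlapped, where 49.1% of all tested genes did not overlap. The 3 members called in MKN45 were also called higher in SNU-5. How many of all tested genes were called higher in both lines was not counted.

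Whether a member responded differently in the lines was tested directly, with the MKN45 change subtracted from that in SNU-5. Of 35 members, 8 (22.9%) were called higher for this difference and 0 lower, where 3.31% and 3.44% of all tested genes were, and at an adjusted p under 0.05 alone 11 (31.4%) were higher and 0 lower, against 5.81% and 6.14%. Both counts include PPARA, which entered the test only through treated SNU-5 cells and had to differ, and without it they were 7 and 10. The median difference over members was 0.47, with 28 above 0, against -0.0044 over all tested genes.

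The widest gap was that of PDK4, at 2.13 log2 units (SE 0.36, adjusted p = 0.0020). PNPLA7, which rose in both lines, rose by 1.56 more in SNU-5 (SE 0.31, adjusted p = 0.0052). For ACAA2 the difference was 1.18 and for ETFDH 1.16 (adjusted p = 0.0036 and 0.0050). Both ketone body enzymes of the set were called, BDH1 at 1.30 and ACAT1 at 1.12 (adjusted p = 0.0071 and 0.0051). ACSL5 was called as well, at 1.06 (adjusted p = 0.0095). Of 6 other ketone body genes, from the further list described below, 2 were tested, and neither was called for the difference. At an adjusted p under 0.05 alone, MKN45 had 2 of them lower (median -1.18) and SNU-5 had 1 lower (median -0.28).

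For PPARA the fitted difference is no measure of size, since 3 of its 4 groups were below detection. Passing on adjusted p alone were ACADS at 0.92, ACOX3 at 1.33 and PPARG at 0.97 (adjusted p = 0.036, 0.040 and 0.0067). Of the 3 members called in both lines, DECR1 and PNPLA2 had differences of -0.13 and -0.37 (SE 0.21 and 0.35), which did not pass. Without MKN45 control replicate 2, 5 members were called, with ACSL5 at 0.93, BDH1 at 1.15 and PPARA lost. Of the 12 fits that left out 1 array, PPARA kept its call in 2, those without SNU-5 control replicate 1 and without SNU-5 crizotinib replicate 3. ACSL5 was also lost, at 0.99 to 1.07, without replicate 2 or 3 of either SNU-5 group or replicate 1 or 3 of the treated MKN45 cells, and BDH1, at 1.24, without SNU-5 crizotinib replicate 3.

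**Figure D3:**
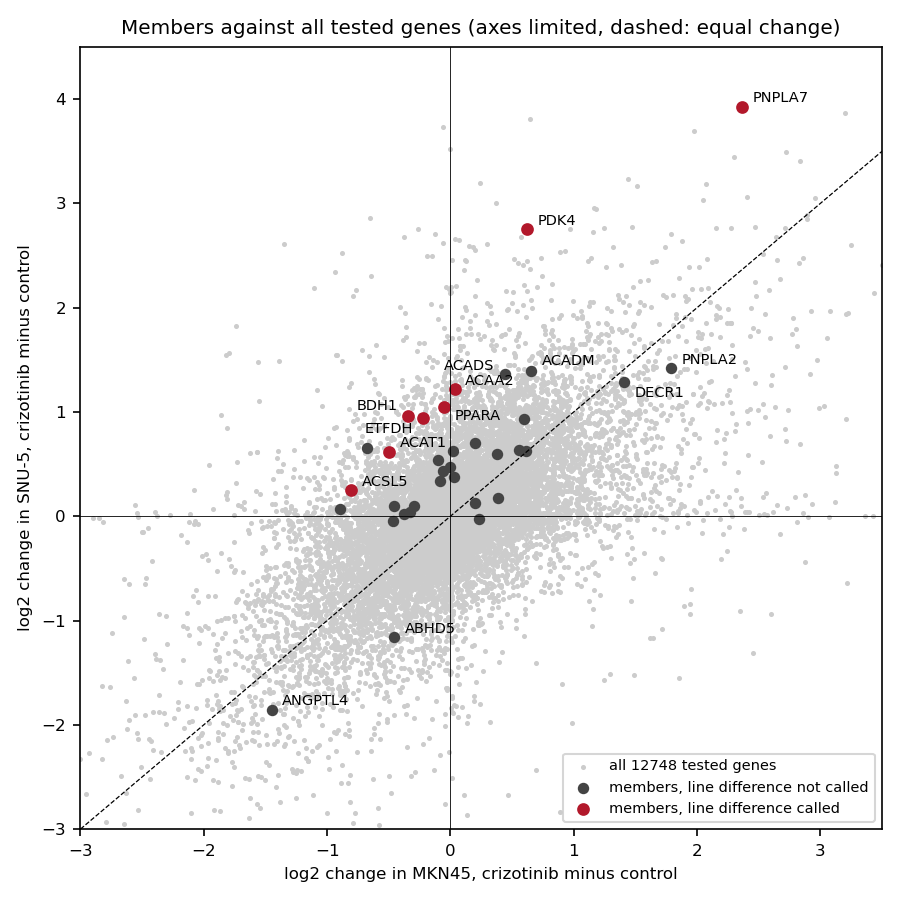
Log2 change after crizotinib in SNU-5 (vertical axis) against MKN45 (horizontal axis) for the 35 tested members over all 12748 tested genes in grey, with 76 genes outside the axes. The 8 members whose response differed between the lines by the call rule, in red, all lie above the dashed line of equal change.

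Untreated, the lines already differed in many of these genes. Between the control groups, 6 members (17.1%) were called higher in SNU-5 and 6 (17.1%) lower, where 10.9% and 10.7% of all tested genes were, or 34.3% against 21.6% in either direction. At an adjusted p under 0.05 alone, 54.3% of members differed, against 45.2% of all tested genes. Of the 35, 11 had all SNU-5 controls above all MKN45 controls, 9 had them all below and 15 overlapped, where 51.7% of all tested genes did not overlap.

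Higher in untreated SNU-5 were ANGPTL4 by 3.75 on the log2 scale, PDK4 by 3.12, PLIN2 by 2.02, SLC25A20 by 1.59, ECI1 by 1.27 and ACOX3 by 1.13, with adjusted p of at most 0.0038. PDK4 averaged 8.70 ± 0.26 (SD, n = 3) in SNU-5 and 5.58 ± 0.55 (SD, n = 3) in MKN45. PLIN2, the ubiquitous droplet coat protein, averaged 11.46 ± 0.19 and 9.44 ± 0.13 (SD, n = 3 each). Thus PDK4, already higher in SNU-5 controls, was also the member with the widest gap in response.

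Lower in untreated SNU-5, as SNU-5 minus MKN45 on the log2 scale, were BDH1 at -2.56, ACSL1 at -2.41, ETFA at -1.25, HADH at -1.24, ACADVL at -1.23 and PPARG at -1.22. The BDH1 rise in SNU-5, seen at its brightest probe and not at the dimmer tested one, thus started near background, from 4.85 ± 0.30 (SD, n = 3). It ended below the MKN45 controls, which averaged 7.41 ± 0.29 (SD, n = 3). PPARG fell in MKN45 from 11.86 ± 0.07 to 10.97 ± 0.16 (SD, n = 3 each), against SNU-5 controls at 10.65 ± 0.12 (SD, n = 3). The call for ACOX3 was lost without SNU-5 control replicate 1, at 0.76, and when any other array was left out, at 1.09 to 1.22, except for replicate 3 of the SNU-5 controls or of the treated SNU-5 cells, and that for ECI1 without MKN45 control replicate 1, at 0.90.

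**Figure D4:**
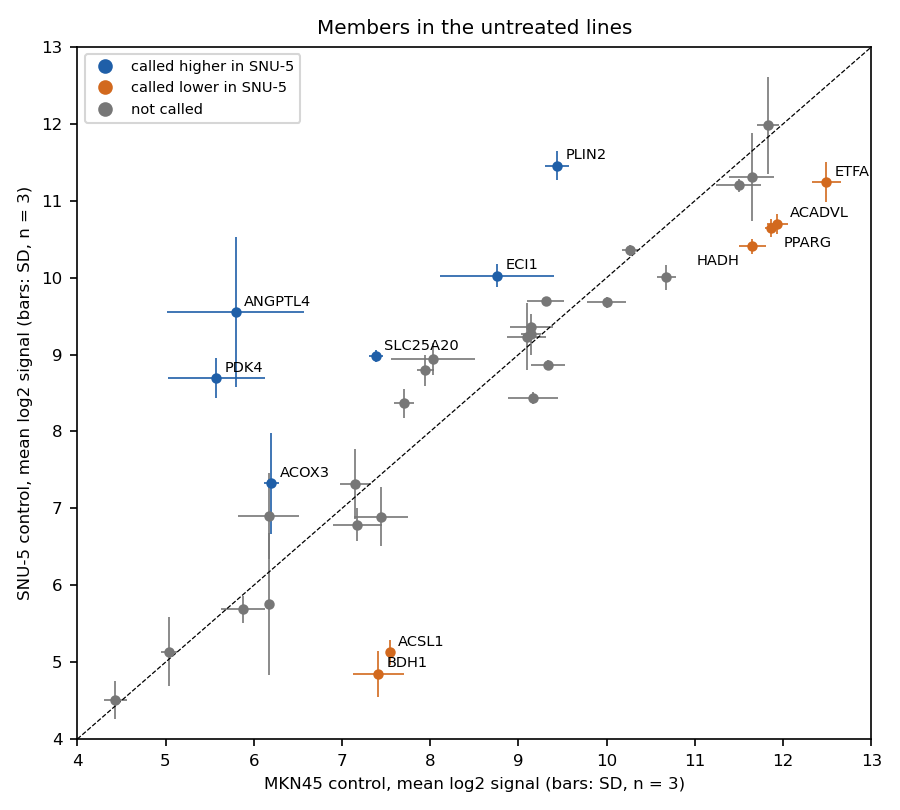
Mean normalized log2 signal of the 35 tested members in SNU-5 controls (vertical axis) against MKN45 controls (horizontal axis), with bars of 1 SD over 3 arrays and a dashed line of equal level; coloured members were called. PDK4, ANGPTL4 and PLIN2 lie above the line and BDH1 and ACSL1 below it.

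A further 110 genes of the same pathways, listed from background knowledge, extended the comparison, of which 76 were tested. In SNU-5, 16 (21.1%) were called higher and 5 (6.58%) lower, and in MKN45 12 (15.8%) were called higher and 7 (9.21%) lower, beside the same 7.09%, 7.47%, 7.33% and 7.19% of all genes. The median log2 change over these genes was 0.42 in SNU-5 and 0.22 in MKN45. In both lines 6 genes were called higher and 4 lower. The share of all tested genes called the same way in both lines was not counted, and the authors reported substantial overlap over all genes.

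The 6 higher in both lines were PDK2, CROT, SLC27A1, ACSF2, ECHDC2 and UCP2. PDK2, a pyruvate dehydrogenase kinase like PDK4, measured 6.34, 6.07 and 5.90 in SNU-5 controls and 8.17, 8.21 and 7.90 with crizotinib, and 5.62, 6.00 and 5.90 in MKN45 controls and 8.02, 8.28 and 7.75 with crizotinib. It rose by 1.99 in SNU-5 and 2.18 in MKN45, and the difference of -0.18 did not pass (SE 0.26, adjusted p = 0.74). UCP2, an inner-membrane carrier, rose by 1.64 and 2.81, CROT, which makes acylcarnitines in peroxisomes, by 1.38 and 1.33, and SLC27A1, a fatty acid transporter, by 2.02 and 1.57. ACSF2, an acyl-CoA synthetase, rose by 1.95 and 1.52, and ECHDC2, a hydratase-like protein, by 1.59 and 1.45.

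The 4 lower in both lines were ACOX2, a peroxisomal oxidase of bile acid intermediates and branched chains, at -3.35 log2 units in SNU-5 and -3.05 in MKN45, FABP5, an intracellular fatty acid carrier, at -2.59 and -1.77, PPRC1, a relative of PPARGC1A, at -2.70 and -1.25, and ACOT7, an acyl-CoA thioesterase, at -1.50 and -1.15. CAT, the peroxisomal catalase, rose by 1.56 in SNU-5 and by 0.98 in MKN45, the latter short of 2-fold.

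Of the 17 further lipid droplet and lipolysis genes tested, 0 were called higher and 1 lower in SNU-5, and 2 were called higher and 1 lower in MKN45. Of all tested genes, 7.09% were called higher and 7.47% lower in SNU-5, and 7.33% and 7.19% in MKN45. G0S2, an inhibitor of PNPLA2, was below detection on all 6 SNU-5 arrays and measured 5.59, 5.69 and 6.46 in MKN45 controls and 10.38, 10.39 and 10.18 with crizotinib, a log2 change of 4.40 (adjusted p = 1.3e-08). HILPDA, a second inhibitor of PNPLA2, measured 7.59, 7.59 and 8.33 in SNU-5 controls and 6.62, 6.64 and 6.75 with crizotinib, and 8.19, 8.48 and 8.71 in MKN45 controls and 10.14, 10.19 and 9.98 with crizotinib. It fell by 1.17 in SNU-5 (adjusted p = 7.0e-04) and rose by 1.64 in MKN45 (adjusted p = 4.6e-05), with all treated arrays below the controls in SNU-5 and above them in MKN45. PNPLA2 itself rose in both lines, as given above.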

How the data were processed

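Total RNA of 12 samples was measured on Illumina HumanHT-12 v4 arrays. For 47323 probes, signal intensities without normalization or background subtraction were deposited, with detection p-values deposited beside them. The authors also deposited log2 values, quantile normalized between arrays with limma; quantile normalization of the log2 signals gave the same values within 0.005. Scanner software: not given in the sources used here.

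Groups and replicate numbers came from the sample labels. Under R 4.3.3, neqc of limma 3.58.1 was applied to the signals (normexp background correction from the detection p-values, offset 16, quantile normalization, log2). Probes detected at p under 0.05 on at least 3 of 12 arrays were kept (23525 probes). One limma fit of 4 group means gave 4 contrasts (8 residual and 5.17 prior degrees of freedom), with Benjamini-Hochberg adjustment over all tested probes in each. Genes were named by probes with 1 symbol in the platform annotation, and a gene was its brightest probe. Values on every array are given for members called in either line or for the difference. Further pathway genes were named if called in both lines, if called for the difference, or if among the 12 smallest adjusted p. A group detected on no array gave a bound, set at the higher of its own signal and the lowest detected signal. The number of arrays limits the precision. The fit was tested on simulated data. Promoter windows are from RefSeq.

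The members and gene lists were chosen with earlier results of these data known. In MKN45, deviations of same-numbered control and crizotinib arrays correlated at 0.12, 0.38 and 0.11, and those of differently numbered arrays at -0.35 to 0.16. Control replicate 1 correlated more with crizotinib replicate 3 (0.16) than with replicate 1. In SNU-5 the same-numbered values were 0.13, -0.02 and 0.49, and the others ran from -0.40 to 0.31. A pairing by number was therefore not established, and no label states one. Alternatives were another normalization, the deposited log2 values, other filters, separate fits, the replicate block, the mean of all probes, adjusted p alone and leaving out each array.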

Additional observations from a re-analysis of the deposited data

Results flagged for a closer look

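The response to crizotinib differed between the lines, by a test of the difference itself in the limma fit, for 8 of 35 members (22.9%) and 6 of 76 further pathway genes (7.89%), where 6.75% of all tested genes did. The share of the further genes was near that of all genes. In log2 units, with the change in MKN45 subtracted from that in SNU-5, the 8 members were PDK4 at 2.13, PNPLA7 at 1.56, BDH1 at 1.30, ACAA2 at 1.18, ETFDH at 1.16, ACAT1 at 1.12, PPARA at 1.10 and ACSL5 at 1.06. The value for PPARA is that of the fit and no measure of size: it entered the test only through treated SNU-5 cells and was below detection in the other 3 groups. For BDH1, a dimmer probe gave 0.23, which did not pass (limma adjusted p = 0.66).

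Of the further genes, 2 (2.63%, against 3.31% of all genes) differed upwards, CIDEC, a droplet fusion protein, at 1.47 and CREB3L3, a transcription factor of fasting metabolism in liver, at 1.27. CIDEC measured 10.17, 10.04 and 10.01 in SNU-5 controls, 10.19, 10.23 and 10.22 with crizotinib, and fell in MKN45 from 7.47, 8.10 and 7.46 to 6.34, 6.27 and 6.42. CREB3L3 was below detection in treated MKN45 cells, so that its MKN45 level was at least 1.07-fold lower and its fitted difference is not an exact size. The other 4 (5.26%, against 3.44% of all genes) differed downwards, G0S2 at -4.29, HILPDA at -2.81, ACSS1, which activates acetate in mitochondria, at -2.60, and AMACR, a racemase of branched chains, at -1.58. G0S2 was below detection on all SNU-5 arrays, so that its fitted difference subtracts background only and is not an exact size. ACSS1 measured 7.64, 7.82 and 7.53 in MKN45 controls and 9.68, 9.92 and 9.96 with crizotinib, against 8.77, 8.43 and 8.27 and 8.02, 7.93 and 8.30 in SNU-5. Line and culture medium cannot be told apart in any of these.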

How the results depend on the processing

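The number of arrays, 3 per group, limits every count, and BDH1, PPARA and ACADSB lay near background. The 2 members called lower in SNU-5 became 1 with quantile normalization without background correction, with the deposited log2 values, with no filter and with the mean of all probes, and 0 in separate fits of each line on either set of values. The 8 called for the line difference became 5 with quantile normalization without background correction and with the deposited values, where ACSL5 (0.97), BDH1 (0.81) and PPARA were lost. With the mean of all probes ACSL5 (0.93) and BDH1 (0.77) lost that call, PPARG (1.13) gained it, and PPARG was called lower in MKN45 at -1.12, making 1 such member where there had been 0. In separate fits PNPLA2 (1.42), PPARA, ABHD5 (-1.16) and ANGPTL4 (-1.85) lost their calls in SNU-5, and with the deposited values PPARA and ABHD5 (-0.78) did. The 16 further genes called higher in SNU-5 became 10 in the separate fit on deposited values. The cause was not tested. Separate fits could not give the differences between lines.

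At an adjusted p under 0.05 alone, 18 members, PPARA included, were higher and 2 lower in SNU-5 (51.4% and 5.71%, against 18% and 17.2% of all genes). In MKN45 5 were higher and 5 lower (14.3% each, against 17.9% each way). Between the controls, 10 were higher and 9 lower in SNU-5 (28.6% and 25.7%, against 22.7% and 22.5%). Of the 76 further genes, 30 were higher and 11 lower in SNU-5 (39.5% and 14.5%, against 18% and 17.2% of all genes). In MKN45, 23 of the further genes were higher and 17 lower (30.3% and 22.4%, against 17.9% of all genes each way).

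With the replicate number as a block, 8 members were called higher and 2 lower in SNU-5, 3 and 0 in MKN45, and 8 and 0 for the difference, and no call of a member changed; of the further genes 13 were called higher in MKN45. The block rests on shared replicate numbers in both lines, and a pairing of the arrays was not established.

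Leaving out 1 array at a time gave 7 to 11 members higher and 0 to 2 lower in SNU-5, 3 higher and 0 to 1 lower in MKN45, 5 to 10 higher for the difference, and 4 to 6 higher in untreated SNU-5. Calls gained were HADHB (1.03) and BDH1 (1.02) in SNU-5 without SNU-5 crizotinib replicates 3 and 1, and HADHA (1.11) in untreated SNU-5 without MKN45 control replicate 2. For the line difference, ACADS (1.04) and ACOX3 (1.69) were gained without SNU-5 control replicate 1, and PPARG without SNU-5 control replicate 3 (1.03), MKN45 control replicate 1 (1.01) or MKN45 crizotinib replicate 3 (1.05). No value that changed sign was called. Over these fits the SNU-5 values were -0.15 to 0.31 for CPT1A, -0.081 to 0.36 for ACADSB, -0.13 to 0.11 for ETFA, -0.24 to 0.26 for ETFB, -0.12 to 0.048 for ECHS1, -0.31 to 0.56 for PPARD and -0.39 to 0.16 for PLIN3. The MKN45 values were -0.025 to 0.046 for SLC25A20, -0.017 to 0.077 for ACSL1, -0.076 to 0.11 for ACAA2, -0.18 to 0.044 for HSD17B4, -0.12 to 0.0089 for PPARA and -0.081 to 0.098 for PLIN2, and the line difference of ANGPTL4 was -0.84 to 0.15. PPARD in SNU-5 was -0.015 with quantile normalization without background correction and -0.017 with the deposited values, also fitted separately. In MKN45 SLC25A20 was -0.11 and PLIN2 0.024 with the mean of all probes, and PLIN2 was 0.0033 with the deposited values, also fitted separately.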
